A study of Mus musculus with 4 samples.

Results

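The genes described here make, take up and sense cholesterol. They are 31 members, chosen by name with earlier results of these data known. Of these, 19 are enzymes of the synthesis pathway and 8 are genes of sterol regulatory element-binding protein 2 (SREBP2) and its control. The other 4 are genes of sterol transport and esterification. All 31 were found among the 25124 gene symbols of the deposited table. RNA was sequenced from airway epithelial cells sorted by flow cytometry from the lungs of wild-type C57BL/6 mice. Every mouse had been sensitised with house dust mite (HDM), an inhaled allergen. One group of 2 samples had received a compound that blocks SCD1 (stearoyl-CoA desaturase 1), which turns saturated into monounsaturated fatty acids, and the other group of 2 samples had received dimethyl sulfoxide (DMSO), its vehicle. The sources used here do not give the compound, its dose, the timing, the age of the mice, or whether the samples came from separate or pooled mice. Mice without HDM were not analysed here.

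Cholesterol is built from acetyl-CoA through mevalonate, farnesyl diphosphate, squalene and lanosterol. Its synthesis is set by SREBP2, a transcription factor held in the membrane of the endoplasmic reticulum with its escort SCAP. When sterols are low, SCAP carries SREBP2 to the Golgi, where a pair of proteases release the active factor, which then switches on the genes of the pathway; when sterols are high, the INSIG proteins hold SCAP back. In the lung, cholesterol is a component of surfactant, the lipid film made by alveolar type 2 cells, and of the membranes of every epithelial cell.

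The 4 libraries held 24591122 to 27013663 reads assigned to genes. Values below are normalised reads: each library's counts were divided by its own size factor. Markers common to epithelial cells were present at 155946 to 169005 summed reads over 8 genes in each library. Markers of leukocytes summed to 265 to 873 reads over 10 genes, with the neutrophil gene S100a8 at 0 in every library, and those of fibroblasts to 889.9 to 2516 reads over 6 genes, with Lum at 0. Endothelial markers stood apart in DMSO replicate 2, at 12499 reads over 6 genes against 4237 to 5985 in the other libraries.

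The promoters of the members are shown first because SREBP2 acts on genes of the pathway together with the factors NF-Y and Sp1. Whether it acts on each member was not tested. Upstream windows of 250 bases before the RefSeq start sites (build GRCm38.p6, which is mm10) were found for 25 of the 31 members, with 33 windows in all. The members with no entry were Erlin2, Fdft1, Fdps, Npc1, Sqle and Stard4. Each window was searched on both strands for TCACNCCAC, a core of the sterol regulatory element, for CCAAT, the NF-Y box, and for GGGCGG, the Sp1 box; no match of one motif overlapped a match of another. The stretches below were cut to exclude bases that GENCODE annotates as exon, so some motifs counted in the windows are not printed. The Cyp51 window holds 1 NF-Y box and its stretch 0. For Sp1 boxes, the Srebf2 window holds 4 and its stretch 1, and the Mvk window 2 and its stretch 1. Chosen after the sequences had been seen, they show the member with the sterol element core (Hmgcs1), the factor's own gene (Srebf2), the member with the most NF-Y boxes (Mvk), and 3 enzymes whose inhibitor values lay under their DMSO values (Mvd, Acat2 and Cyp51). Coordinates are chr13:119690101-119690350 (plus strand) for Hmgcs1, chr15:82147019-82147180 (plus) for Srebf2, chr5:114444061-114444268 (plus) for Mvk, chr8:122443423-122443672 (minus) for Mvd, chr17:12960748-12960975 (minus) for Acat2 and chr5:4104747-4104947 (minus) for Cyp51. All read 5′ to 3′ toward the gene, and capitals mark the motifs, with ATTGG and CCGCCC being the NF-Y and Sp1 boxes on the other strand.
Hmgcs1: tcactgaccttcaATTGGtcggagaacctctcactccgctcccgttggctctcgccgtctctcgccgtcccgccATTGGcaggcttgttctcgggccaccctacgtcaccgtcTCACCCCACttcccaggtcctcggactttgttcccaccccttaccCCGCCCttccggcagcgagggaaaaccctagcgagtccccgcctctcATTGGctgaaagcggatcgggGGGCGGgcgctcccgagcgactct
Srebf2: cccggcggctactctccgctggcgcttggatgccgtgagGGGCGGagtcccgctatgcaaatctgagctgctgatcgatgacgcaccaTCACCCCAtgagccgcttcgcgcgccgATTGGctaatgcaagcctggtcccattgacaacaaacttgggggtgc
Mvk: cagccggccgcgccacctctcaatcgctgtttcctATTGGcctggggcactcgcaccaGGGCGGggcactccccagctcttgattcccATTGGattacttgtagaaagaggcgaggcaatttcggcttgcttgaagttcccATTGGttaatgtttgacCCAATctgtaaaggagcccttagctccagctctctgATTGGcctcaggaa
Mvd: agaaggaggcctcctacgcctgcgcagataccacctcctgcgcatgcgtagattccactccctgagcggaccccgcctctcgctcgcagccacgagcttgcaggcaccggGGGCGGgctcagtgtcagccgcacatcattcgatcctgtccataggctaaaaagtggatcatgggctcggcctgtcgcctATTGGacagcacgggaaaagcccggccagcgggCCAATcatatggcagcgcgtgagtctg
Acat2: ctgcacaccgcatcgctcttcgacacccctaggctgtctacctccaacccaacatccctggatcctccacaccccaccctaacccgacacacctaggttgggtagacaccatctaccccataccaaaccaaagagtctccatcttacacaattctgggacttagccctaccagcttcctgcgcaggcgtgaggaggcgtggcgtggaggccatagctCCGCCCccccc
Cyp51: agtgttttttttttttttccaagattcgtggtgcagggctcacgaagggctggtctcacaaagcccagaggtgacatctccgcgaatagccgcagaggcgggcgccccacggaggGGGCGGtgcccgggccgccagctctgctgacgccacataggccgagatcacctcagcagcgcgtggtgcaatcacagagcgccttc

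NF-Y boxes stood in the windows of 21 of the 25 matched members (84%), against 39.8% of the 10898 tested genes with an entry. Counted by window, the shares were 69.7% of the 33 member windows and 33.8% of all 32851 windows in the table. Sp1 boxes were found in 21 of 25 members as well, against 62.7% of tested genes (75.8% of member windows and 32.7% of all windows). The sterol element core was found in 1 member, Hmgcs1, with 128 bases between it and the start site, and in 1.33% of tested genes and 1.05% of all windows. A shorter core, TCACNCCA, which was searched after the sequences had been seen and which the longer core contains, was found in Hmgcs1, Msmo1 and Srebf2, in 3.93% of tested genes and in 3.67% of all windows. In the Srebf2 stretch above it is the run TCACCCCA, with 154 bases between it and the start site. A match of letters is a description and not a mapped binding site.

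The comparison asked how each step of the cholesterol pathway in HDM-sensitised mice differed with SCD1 inhibition. None of the 31 members passed the test over all genes (limma, Benjamini-Hochberg adjusted p under 0.05), against 1.79% of the 13810 genes tested. The members nonetheless lay mostly on the lower side. A negative log2 fold change was fitted for 25 of the 31, against 49.3% of all genes tested. The members' median log2 fold change was -0.23 (1.17-fold lower), beside 0.0056 over all genes. As the members were chosen with earlier results of these data known, such counts and medians only describe the list and were not tested. All 31 members passed the filter on low values, a mean of at least 25.8 reads (1 CPM, counts scaled to the library total). Leaving out each library in turn changed the sign of 11 of the 14 members whose groups overlapped. A member whose groups do not overlap cannot change sign in this way, so this count mainly restates the overlap. Log2 fold changes are on the scale log2(value + 25.8), which makes those of genes with few reads smaller. Where a mean is said to be lower by a fold (Acat2, Tm7sf2 and Npc1), the fold is the ratio of the mean normalised reads.

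In 16 of the 31 members both inhibitor libraries lay under both DMSO libraries, against 22.2% of all genes tested. In 1 member, Erlin2, both lay above, against 22.7% of all genes. For 10 members the inhibitor mean was lower by more than the gap between the replicates of either group, against 15.7% of all genes; no member was higher by as much, against 16.4%. At an unadjusted p under 0.05, 7 members were lower and 0 higher, against 5.92% and 8.16% of all genes. These 7 were Acat2, Fdps, Cyp51, Tm7sf2, Srebf2, Npc1 and Npc2. By other tools on the recovered reads, edgeR called 0 members, where it called 10 of 15299 genes (0.0654%). It had 8 members lower at an unadjusted p under 0.05, against 5.54% of genes. DESeq2 called Npc1 and Srebf2 lower, where 7.06% of the 6865 genes with an adjusted p were called. It had 4 members lower at an unadjusted p under 0.05, against 4.45% of 17207 genes. DESeq2 gave an adjusted p for 19 of the 31 members.

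**Figure D1:**
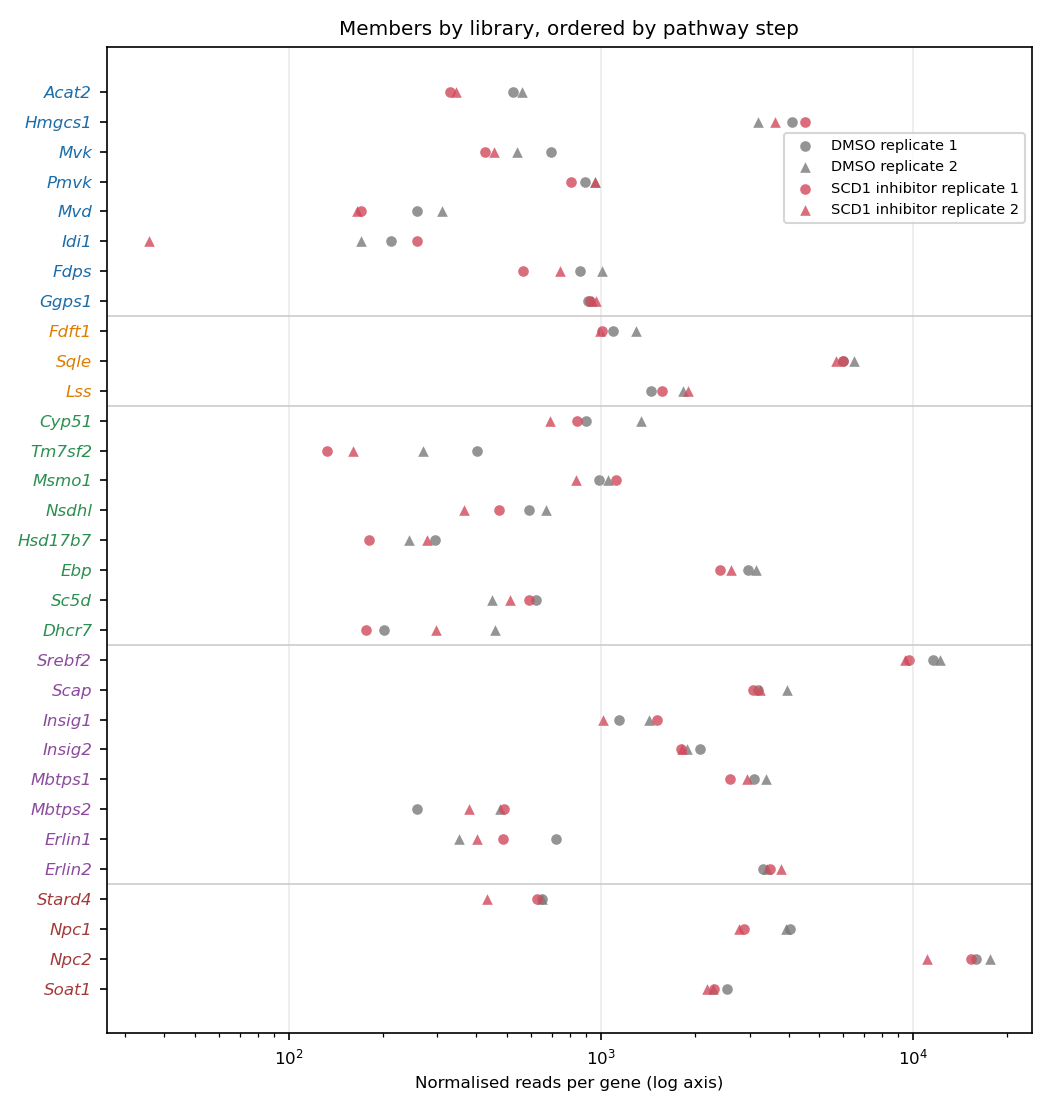
Normalised reads of each member (log axis) in the 2 DMSO libraries (grey) and the 2 inhibitor libraries (red), with circles for replicate 1 and triangles for replicate 2; gene names are coloured by pathway step, with lines between steps. The red points of Npc1, Tm7sf2 and Acat2 lie clear to the left of the grey points, and Idi1 in inhibitor replicate 2 stands alone at 35.7 reads.

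**Figure D2:**
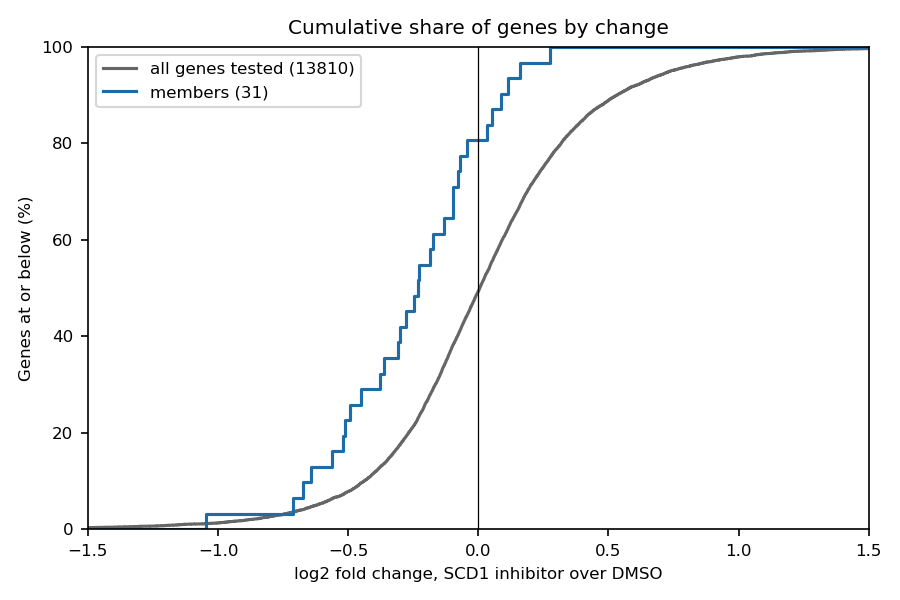
Cumulative share of genes (%) at or below each log2 fold change of inhibitor over DMSO, for the 31 members (blue) and all 13810 genes tested (grey). The blue curve crosses 0 at 80.6% and the grey curve at 49.3%, and no member lies above 0.28.

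The mevalonate arm, from acetyl-CoA to farnesyl diphosphate, had a median log2 fold change of -0.48 over 8 genes, with 6 negative. Acat2, the cytosolic thiolase that joins a pair of acetyl-CoA units, had 522 and 558 reads with DMSO and 329.7 and 344 with the inhibitor. Its replicates lay close together in each group and the groups did not overlap. The mean went from 540.2 ± 25.1 to 337 ± 10.2 (SD, n = 2 each), 1.60-fold lower, with a log2 fold change of -0.64 ± 0.27 (SE; limma adjusted p = 0.311). Fdps, which makes farnesyl diphosphate, had 859 and 1013 reads with DMSO and 565 and 739.6 with the inhibitor, again without overlap (log2 fold change -0.51 ± 0.23, limma adjusted p = 0.328).

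Mvk and Mvd, the kinase and the decarboxylase of mevalonate, were lower in both inhibitor libraries than in either DMSO library. Mvk had 694 and 541 reads with DMSO and 426 and 456 with the inhibitor (-0.45 ± 0.26, limma adjusted p = 0.476). Mvd had 258 and 311 against 170.1 and 166 (-0.68 ± 0.36, limma adjusted p = 0.437). Pmvk, the kinase between them, overlapped, at 889.9 and 960.3 against 805 and 962 reads (-0.069 ± 0.20).

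Hmgcs1, the synthase that commits acetoacetyl-CoA to the pathway and the most abundant gene of this arm per length (795 reads per kb of exon with DMSO), lay on the other side. It had 4105 and 3196 reads with DMSO and 4525 and 3632 with the inhibitor. The groups overlapped, the replicates of each differed by more than the group means did, and the log2 fold change was 0.16 ± 0.15 (limma adjusted p = 0.695). Its sign rested on DMSO replicate 2, without which the value was -0.018. Ggps1, which makes geranylgeranyl diphosphate for protein prenylation rather than sterol, was at 909 and 938 reads against 927 and 964 (0.033 ± 0.19).

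Idi1, the isomerase that supplies the starter unit for prenyl chains, had the lowest fitted value of the arm, and it came from 1 library. It had 213 and 170.5 reads with DMSO, 258 in inhibitor replicate 1 and 35.7 in inhibitor replicate 2. The inhibitor libraries thus held both the highest and the lowest value. The log2 fold change was -0.71 ± 0.60 (limma adjusted p = 0.653), 0.39 without inhibitor replicate 2 and -1.82 without inhibitor replicate 1.

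The 3 enzymes from farnesyl diphosphate to lanosterol had a median log2 fold change of -0.098, which was -0.042 without DMSO replicate 2 and -0.15 without DMSO replicate 1. Sqle, the squalene epoxidase and a rate-limiting enzyme of the later pathway, was the most abundant of the 3 per length, at 1124 reads per kb of exon with DMSO. It had 5990.4 and 6477 reads with DMSO and 5969 and 5670.0 with the inhibitor (-0.098 ± 0.11, limma adjusted p = 0.761). The groups were separated by 21.2 reads at their nearest values. Fdft1, the squalene synthase, had 1095 and 1301 against 1009 and 993 reads (-0.25 ± 0.19, limma adjusted p = 0.606), with -0.13 without DMSO replicate 2 and -0.37 without DMSO replicate 1. Its exons share 18.3% of their bases with Ctsb on the opposite strand, and whether counting used strand is not given in the sources used here. Lss, which folds squalene epoxide into lanosterol, overlapped between groups, at 1444 and 1842 against 1578 and 1904 reads (0.086 ± 0.17).

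The 8 enzymes from lanosterol to cholesterol had a median of -0.33, and 7 were negative. Tm7sf2, a sterol reductase (chromosome 19, 6062821 to 6068373, minus strand, mm10), had the largest difference of all members. It had 401 and 271 reads with DMSO and 133 and 160.5 with the inhibitor. The groups did not overlap, and the mean was 2.29-fold lower. The log2 fold change was -1.05 ± 0.37 (2.07-fold lower on that scale, limma adjusted p = 0.217). Its exons share 12.1% of their bases with Vps51 on the same strand.

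Cyp51, the demethylase that acts on lanosterol, had 898 and 1349.8 reads with DMSO and 839 and 689 with the inhibitor. DMSO replicate 2 lay well above the other 3 libraries. The log2 fold change was -0.52 ± 0.23 (limma adjusted p = 0.330), with -0.81 and an adjusted p of 0.0429 without DMSO replicate 1, where 5.76% of genes were called, and -0.23 without DMSO replicate 2. The call without DMSO replicate 1 sets its high library alone against the inhibitor pair, with no spread among DMSO samples. Nsdhl, a dehydrogenase that helps strip methyl groups from the ring, had 591 and 667 reads against 473 and 366 (-0.56 ± 0.26, limma adjusted p = 0.361). Ebp, the sterol isomerase and per length the most abundant enzyme of this step (1324 reads per kb of exon with DMSO), had 2969 and 3149.5 reads against 2413 and 2626, without overlap (-0.28 ± 0.13, limma adjusted p = 0.377).

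In the remaining 4 enzymes of this step the groups overlapped. The methylsterol monooxygenase Msmo1 (-0.077), the ketosteroid reductase Hsd17b7 (-0.23), the sterol desaturase Sc5d (0.051) and Dhcr7, the reductase of the last step (-0.38), had limma adjusted p values of 0.746 to 0.954. Dhcr7 was the most uneven of them, at 202 and 459.8 reads with DMSO and 177 and 297 with the inhibitor, with replicate 2 higher in each group. Without DMSO replicate 2 its log2 fold change was 0.17.

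**Figure D3:**
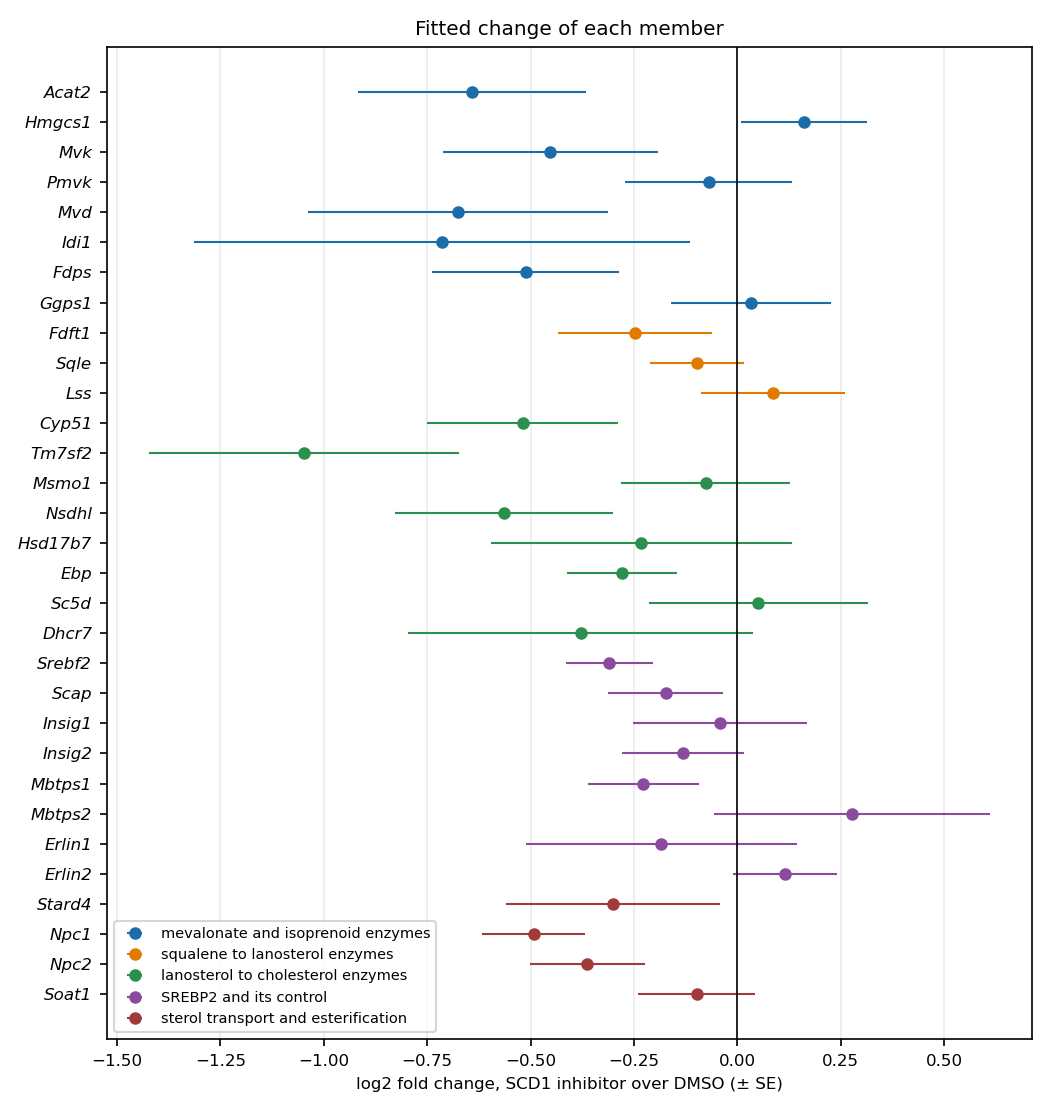
Fitted log2 fold change of each member, inhibitor over DMSO, with bars for ± 1 SE and colours for the pathway step; the vertical line marks no difference. Points left of the line number 25 of 31, and Tm7sf2 at -1.05 and Mbtps2 at 0.28 are the ends of the range.

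Srebf2, which encodes SREBP2 (chromosome 15, 82147181 to 82205379, plus strand), was the most abundant control gene per length, at 1657 reads per kb of exon with DMSO and 1336 with the inhibitor. It had 11593 and 12219 reads with DMSO and 9729 and 9465 with the inhibitor. The groups were well apart against gaps of 627 and 264 reads between replicates. The log2 fold change was -0.31 ± 0.10 (1.24-fold lower; limma adjusted p = 0.188), and leaving out each library in turn gave -0.35 to -0.27. With DESeq2 it was called lower (adjusted p = 0.0262). It was not called with edgeR (adjusted p = 0.264) or with the replicate number as a block (limma adjusted p = 0.101). Nor was it called with limma without its intensity trend (adjusted p = 0.551).

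The genes that move or hold SREBP2 differed less. Over all 8 genes of SREBP2 and its control the median log2 fold change was -0.15, and 6 were negative. Scap, the escort, had 3183 and 3965 reads with DMSO and 3067 and 3230.0 with the inhibitor, with overlap (-0.17 ± 0.14, limma adjusted p = 0.634). DMSO replicate 2 was its high library, without which the value was -0.016, and without DMSO replicate 1 it was -0.33. Mbtps1, the Golgi protease that makes the first cut, had 3103 and 3376 against 2592 and 2938 reads, without overlap (-0.23 ± 0.13, limma adjusted p = 0.488). Mbtps2, the protease of the following cut, had the highest value of all members, 0.28 ± 0.33, with overlap at 258 and 475 against 490.2 and 379 reads. Its sign rested on DMSO replicate 1, without which it was -0.13 (0.69 without DMSO replicate 2), and its exons share 28.4% of their bases with Yy2.

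The INSIG genes, which hold SCAP in the endoplasmic reticulum, showed no difference beyond the spread of their replicates. Insig1, itself a target of SREBP2, had 1147 and 1427 reads with DMSO and 1513 and 1019.7 with the inhibitor. The inhibitor libraries again held both the highest and the lowest value, and the log2 fold change was -0.042 ± 0.21 (limma adjusted p = 0.953). It was 0.24 without inhibitor replicate 2 and 0.11 without DMSO replicate 2. Insig2 had 2088 and 1895 reads against 1807 and 1820.1 (-0.13 ± 0.15, limma adjusted p = 0.751). The inhibitor values lay just under the DMSO values.

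Erlin1 and Erlin2 encode partner proteins of the endoplasmic reticulum membrane that bind the SCAP complex. Erlin2 was higher in both inhibitor libraries, at 3492 and 3788 reads against 3313 and 3400.2 (0.11 ± 0.13, limma adjusted p = 0.742). Erlin1 overlapped, with DMSO replicate 1 at 719 reads and the other 3 libraries between 352 and 485 (-0.18 ± 0.33).

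The 4 genes of sterol transport and esterification were all negative, with a median of -0.33. Npc1 had the smallest p of the 31 members. It encodes the membrane protein that exports cholesterol from the lysosome (chromosome 18, 12189692 to 12236400, minus strand). It had 4053 and 3924 reads with DMSO and 2880.0 and 2776 with the inhibitor. The gap between the groups was 1044.5 reads at the nearest values, against 128 and 104 between replicates. The mean went from 3989 ± 90.7 to 2828 ± 73.7 reads (SD, n = 2 each), 1.41-fold lower, a log2 fold change of -0.49 ± 0.12 (limma adjusted p = 0.0689).

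The value of Npc1 was steady while its adjusted p was not. Leaving out each library in turn gave -0.52 to -0.47. It was called without DMSO replicate 1 (limma adjusted p = 0.0481) and without DMSO replicate 2 (0.0496, where 2.57% of genes were called), and with DESeq2 (adjusted p = 0.0129). In those 2 fits the DMSO group is 1 library, assumed to vary like the others, and the spread comes from the inhibitor pair and from the other genes. It was not called without inhibitor replicate 1 (0.528), without inhibitor replicate 2 (0.755) with edgeR (0.151) or with limma without its intensity trend (0.462). With the replicate number as a block Npc1 and Npc2 were called, where 4.88% of genes were. Its exons share 4.52% of their bases with Rmc1 on the opposite strand.

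Npc2, the soluble partner that hands cholesterol to NPC1 inside the lysosome, had the highest level per length of all members, 3089 reads per kb of exon with DMSO and 2429.6 with the inhibitor. It had 15919 and 17680.0 reads with DMSO and 15338 and 11086 with the inhibitor. Inhibitor replicate 2 stood far below the other 3 libraries, and inhibitor replicate 1 lay close to DMSO replicate 1. The log2 fold change was -0.36 ± 0.14 (limma adjusted p = 0.258), -0.13 without inhibitor replicate 2 and -0.60 without inhibitor replicate 1. Stard4, a cytosolic cholesterol carrier, showed the same order, at 647 and 648 against 627 and 432 reads (-0.30 ± 0.26, limma adjusted p = 0.660), and had -0.045 without inhibitor replicate 2. Soat1, which esterifies cholesterol for storage, had 2540.0 and 2283 against 2309 and 2188 reads (-0.099 ± 0.14, limma adjusted p = 0.816).

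Other genes of sterol and isoprenoid biology gave no member that passed over all genes. Of 14 genes that use isoprenoids, mainly for protein prenylation, dolichol and coenzyme Q, 8 were negative (median -0.018). The 2 of smallest p were Icmt, which methylates prenylated proteins (-0.31, limma adjusted p = 0.255), and Nus1, of dolichol synthesis (0.46, limma adjusted p = 0.266). Of 8 genes of sterol-regulated degradation in the endoplasmic reticulum, 6 were negative (median -0.18). Among them Faf2, which helps draw proteins out of the membrane for degradation, had -0.26 (limma adjusted p = 0.444). Of 13 tested genes of other sterol transport and hydrolysis, 4 were negative (median 0.035), with the sterol-binding proteins Osbpl9 at 0.38 and Gramd1b at 0.26 (limma adjusted p = 0.205 and 0.454). The 3 tested oxysterol enzymes had a median of 0.068, with Ch25h at 1.09 on 0, 16.8, 18.2 and 87.1 reads (limma adjusted p = 0.546) and Hsd3b7 at -0.063 (0.942).

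Markers of several epithelial cell types also differed between the groups. Among all 13810 genes tested, 59 were called lower and 188 higher (limma adjusted p under 0.05). Of 12 markers of alveolar type 2 cells, 11 were negative (median -0.53), and 5 fell at an adjusted p under 0.05. Their summed level was 444640.2 and 503090.1 reads with DMSO and 351030.2 and 290578 with the inhibitor. The 5 were Lyz2, Abca3, Sftpb, Sftpc and Sftpd (log2 fold changes of -0.65 to -0.52). Lamp3 was the positive one (0.071). Of 10 club cell markers all were negative and 6 fell (median -0.81), but their summed levels overlapped, at 580618 and 476501 against 500463 and 314014 reads. Scgb1a1, the main secreted protein of club cells, overlapped too, at 310825 and 241855 against 332447 and 163459 reads (limma adjusted p = 0.729). Of 9 goblet cell markers all were negative and 6 fell (median -1.61; 106532 and 80974 against 19181 and 37199.5 reads). Each gene of these 3 lists had reads in at least 1 library. Basal cell markers were negative in 5 of 5 tested genes (median -1.30) with 0 called. Ciliated cell markers lay mostly on the other side, with 3 of 11 negative (median 0.17) and 2 that rose, Ccdc39 and Ccdc113. Their summed levels differed little, at 499188 and 510138 against 510308 and 526616 reads. Of the 11, 5 were higher in both inhibitor libraries, 1 was lower, and 5 overlapped, among them Foxj1 (-0.059). Of 7 tested alveolar type 1 markers 5 were negative (median -0.11), and the water channel Aqp5 fell (-0.85, limma adjusted p = 0.0203). All 5 tested fibroblast markers were positive (median 0.72), with 0 called and 2 at an unadjusted p under 0.05, where 8.16% of all genes were higher.

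The summed alveolar type 2 and club cell markers were lowest in inhibitor replicate 2, and the summed goblet and basal cell markers in inhibitor replicate 1. Of the 31 members, 13 had their lowest value in inhibitor replicate 2, 11 in inhibitor replicate 1, 4 in DMSO replicate 1 and 3 in DMSO replicate 2. In bulk samples fewer cells of a type and less RNA per cell cannot be told apart, and the part of cell makeup in the members' values was not tested.

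**Figure D4:**
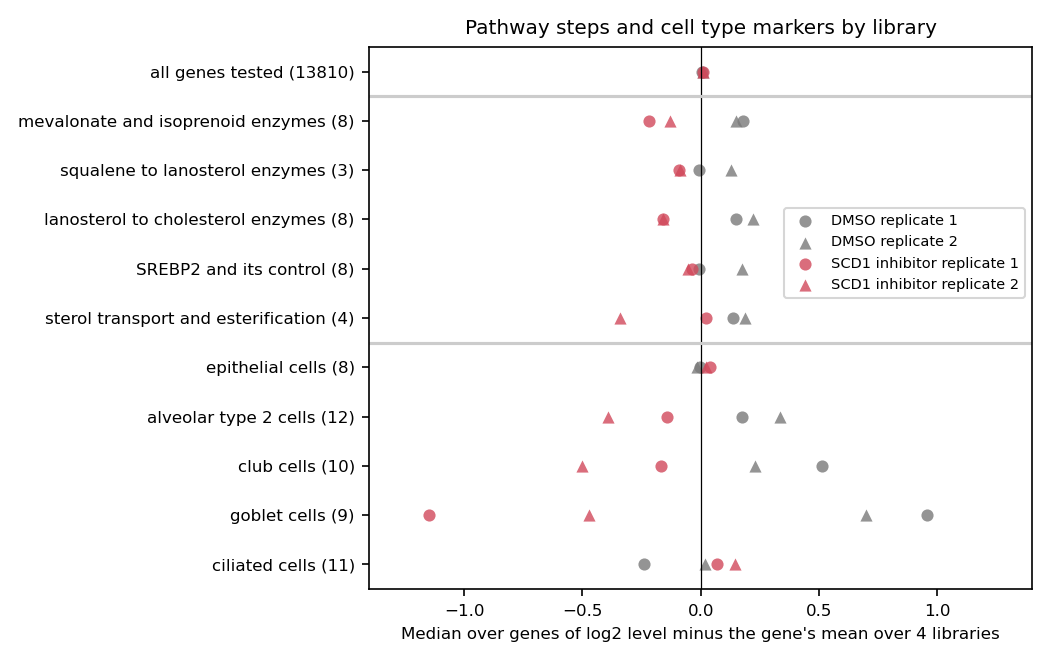
Median over the genes of each pathway step and marker list of the log2 level minus that gene's mean over the 4 libraries, for the DMSO (grey) and inhibitor (red) libraries; gene numbers are in brackets. Both red points lie left of both grey points in all 5 pathway steps, by less than in the goblet cell markers, while the median of all genes tested stays at 0.0047 to 0.012 in each library. The gap is narrow in SREBP2 and its control, with grey points at -0.0084 and 0.17 and red points at -0.036 and -0.055. From squalene to lanosterol the grey points are at -0.0071 and 0.13 and the red points at -0.091 and -0.086. In both of these steps the grey points lie further apart than the nearest grey and red points do.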

How the data were processed

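RNA sequencing of 4 samples was used. The deposited signal values are gene-level read counts that the authors had scaled by a size factor for each library, as their spacing shows. Per the submitters' processing notes, HOMER, DESeq2 and build mm10 were used, with no role or version given. For the aligner, read filters and strand setting of counting: not given in the sources used here. Per the labels' protocols, TRIzol was used for extraction and a directional kit for the libraries. Every value was a whole multiple of the smallest value of its library (100% within 0.01 of a whole number), so reads could be recovered by division. In DMSO replicate 2 the step was within 1% of 1 (0.991), and its recovery rests on those multiples alone.

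Groups were taken from the sample titles. Values were tested as log2(value + 25.8), 25.8 being worth 1 CPM at the mean library total. Genes with a mean of at least 25.8 were kept (13810). limma 3.58.1 in R 4.3.3 was fitted with group as its term and an intensity trend, which gave 11.2 prior degrees of freedom, and p values were adjusted over all genes by the Benjamini-Hochberg method. Lists are described by counts and medians, with no test. At the filter, a library's value carries a counting error of 19.7%, which leaves out PCR duplication. An exact permutation test of 2 against 2 libraries cannot go below p = 0.333 (two-sided) and was not used. The labels do not say that samples came from separate mice, so p values measure the spread between these samples, which may be technical. The steps were tested on simulated data. Coordinates, exon lengths and overlaps came from GENCODE M21, which matched 31 members, and promoters from RefSeq. Alternatives were other pseudocounts, filters and scalings, a block for replicate number, limma without its trend, edgeR 4.0.16 and DESeq2 1.42.0 on recovered reads, and each library left out. The values of every library are printed for members with an unadjusted p under 0.05, for the most changed and most abundant of each step, for Srebf2, Scap, Insig1 and Insig2, and, named after their values were seen, for others. In the related lists the 2 genes of smallest p are named, of which 1 is not reported here. The members and lists were chosen with earlier results of these data known. The rule for promoters was to print members with the sterol element core; as 1 member held it, 5 more were added. Tables and figures were made in Python 3.11.15 (numpy 2.4.6, pandas 2.3.3, matplotlib 3.10.9).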

Additional observations from a re-analysis of the deposited data

How the results depend on the processing

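Genes called numbered 247 in all. They numbered 674 with the replicate block, 64 with no filter on low values, 0 with limma without its intensity trend (1423 at an unadjusted p under 0.05), 10 with edgeR and 485 with DESeq2. Leaving out each library gave 5 (without SCD1 inhibitor replicate 1) to 795 (without DMSO replicate 1). Members called numbered 2 with the replicate block (Npc1, adjusted p = 0.0127, and Npc2, 0.0469, where 4.88% of genes were called), 2 with DESeq2, and 0 to 2 with a library left out, and 0 in every other setting run. The replicate numbers are shared by the labels, but across genes the deviations of same-numbered libraries from their group means correlated at only r = 0.0734, so the block is not taken as a pairing.

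The members' median log2 fold change, -0.23, was -0.18 with a filter at a mean of 10 CPM, which drops 4 members (Mvd, Idi1, Tm7sf2 and Hsd17b7), -0.27 with edgeR, and -0.29 to -0.19 with a library left out. For the mevalonate arm (-0.48) it was -0.36 with a pseudocount worth 5 CPM, -0.26 with the filter at 10 CPM, -0.44 with DESeq2 and -0.47 to -0.35 with a library left out. For lanosterol to cholesterol (-0.33) it was -0.28 with a pseudocount worth 5 CPM, -0.40 with edgeR, -0.38 with DESeq2 and -0.48 to -0.23 with a library left out. For sterol transport (-0.33) it was -0.54 to -0.095 with a library left out, the latter without SCD1 inhibitor replicate 2. The number of negative members was 23 to 26 over the alternatives that tested all 31, and 21 of 27 with the filter at 10 CPM. Which step had the lowest median changed with the setting. It was the mevalonate arm in the analysis as reported, but sterol transport (-0.33) with the filter at 10 CPM and without SCD1 inhibitor replicate 1 (-0.54), and lanosterol to cholesterol when SCD1 inhibitor replicate 2 (-0.39) or DMSO replicate 1 (-0.48) was left out. A group left with 1 library was assumed to vary like the other. The sign turned for 11 members in at least 1 fit with a library left out, among them Hmgcs1 (-0.018 to 0.34, negative without DMSO replicate 2), Insig1 (-0.32 to 0.24, and 0.11 without DMSO replicate 2) and Idi1 (-1.82 to 0.39, positive without SCD1 inhibitor replicate 2). Cyp51 was called without DMSO replicate 1. The causes were not tested.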
